A study of Sus scrofa with 12 samples.

Results

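Genes of prostaglandin synthesis, reception and breakdown were followed in pig (Sus scrofa) cells cultured from the aortic valve. The labels call them aortic valve interstitial cells, a cell type that resembles fibroblasts and lays down leaflet matrix. The genes were PLA2G4A, PTGS2, PTGS1, PTGES, PTGIS, PTGER2, PTGER4 and HPGD, 8 in all, taken by name from a deposited table of 22861 genes. They were chosen by their role together with their RPKM levels and fold changes in these same 12 libraries, so their differences between groups are given as descriptions, with no p-value of their own. A threshold on adjusted p is used for them only to count them beside all other genes. A row was found for 7 of the 8, and PTGER4 was not analysed here. RPKM here is a read number divided by exon length and by a total for the library. Of those 7 genes, 6 reached 1 RPKM in at least 3 libraries, the minimum for entering the fit, as 13046 genes did. HPGD reached it in 0 libraries and is described by its reads alone.

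The 12 libraries formed 4 groups of 3 biological replicates. Cells of every group were grown in DMEM on glass, which the labels name as the calcification stimulus, until a stage of calcification was seen. The groups were Stage 1 (day 5), Stage 2 (day 8), Stage 3 with KPT and Stage 3 with DMSO. The day of each Stage 3 library, the dose, exposure time and fuller name of KPT, and the breed, age and number of the pigs, are not stated in the labels. KPT is a code name shared by compounds that block XPO1, which carries proteins out of the nucleus. Cells grown off glass and Stage 3 cells without DMSO were not analysed here, so a later stage and DMSO cannot be told apart where Stage 3+DMSO is set against an earlier stage. Nothing says that replicates came from separate animals, so p-values measure only the spread between these cultures, which may be technical.

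Prostaglandins are short-lived lipid signals made from arachidonate. PLA2G4A, cytosolic phospholipase A2, frees arachidonate from membranes. The cyclooxygenases PTGS1, made steadily in many cells, and PTGS2, induced by cytokines and growth factors, turn it into prostaglandin H2. From there PTGES makes prostaglandin E2 and PTGIS makes prostacyclin, a vasodilator that also restrains platelets. Prostaglandin E2 acts on receptors that include PTGER2 and PTGER4, both of which raise cAMP, and HPGD begins its breakdown. In fibroblast-like cells PTGS2 is known as an early response gene, and its messenger carries AU-rich elements that bind decay factors.

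Library totals recovered from the RPKM values ranged from 13188023 to 24724019, and Pearson's r across genes lay between 0.985 and 0.994 for replicate pairs. Stage 3+DMSO replicate 1 stood furthest from its group, with chi-square per degree of freedom of 38.3 and 44.4 against the other replicates, where all other pairs had 5.68 to 25.4. Each count of the members below is given beside the share of all tested genes that did the same. Of 10 valve interstitial markers 9 had a row, and all 9 were tested. They summed to between 16804 and 17331 RPKM in Stage 3+KPT, against 26207 to 28673 RPKM in Stage 3+DMSO, with 27131 to 28303 at Stage 2 and 20042 to 20956 at Stage 1. Of 9 endothelial markers 8 had a row and 4 were tested. Their sum was 34.4 to 38.4 RPKM in Stage 3+KPT and 68.3 to 85.3 in Stage 3+DMSO, with 62.8 to 68.6 at Stage 2 and 63.2 to 66.8 at Stage 1, and most of it was ERG, while VWF, KDR and TEK stayed below 1 RPKM in every library. Of 10 leukocyte markers only CD14 and CD68 were tested, and the sums were 12.5 to 15.5 RPKM in Stage 3+KPT, 14.3 to 15.1 in Stage 3+DMSO, 11.9 to 14.2 at Stage 2 and 10.2 to 11.2 at Stage 1, with CD163 and ITGAM at 0 in every library. Platelet markers, 4 of 5 with a row, summed to 0.855 to 1.64 RPKM in Stage 3+KPT, 0.592 to 0.982 in Stage 3+DMSO, 1.08 to 1.502 at Stage 2 and 1.15 to 1.47 at Stage 1. The valve interstitial sum was mostly VIM, COL1A2 and COL3A1, which were lower with KPT, as was PDGFRB, while POSTN (log2 fold change 1.43), DCN (0.34) and LUM (0.33) were higher, and PDGFRA (0.04) and S100A4 (-0.20) did not pass limma's adjusted p of 0.05. Both the valve interstitial and the endothelial sums thus differed with KPT, the valve interstitial genes in both directions, and their part in the results below was not tested.

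In Stage 3+KPT libraries PLA2G4A, the member that frees arachidonate, and both cyclooxygenase genes were higher than in Stage 3+DMSO libraries. PTGS2 was 24.4-fold higher, PTGS1 4.69-fold and PLA2G4A 3.05-fold. Of the enzymes downstream, PTGES was 1.87-fold higher and PTGIS was 2.63-fold lower. From Stage 1 through Stage 2 to Stage 3+DMSO, PTGS2 and PLA2G4A were lower at each later stage and PTGIS was higher at each. In bulk RNA, fewer cells of a type and less RNA per cell cannot be told apart.

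**Figure D1:**
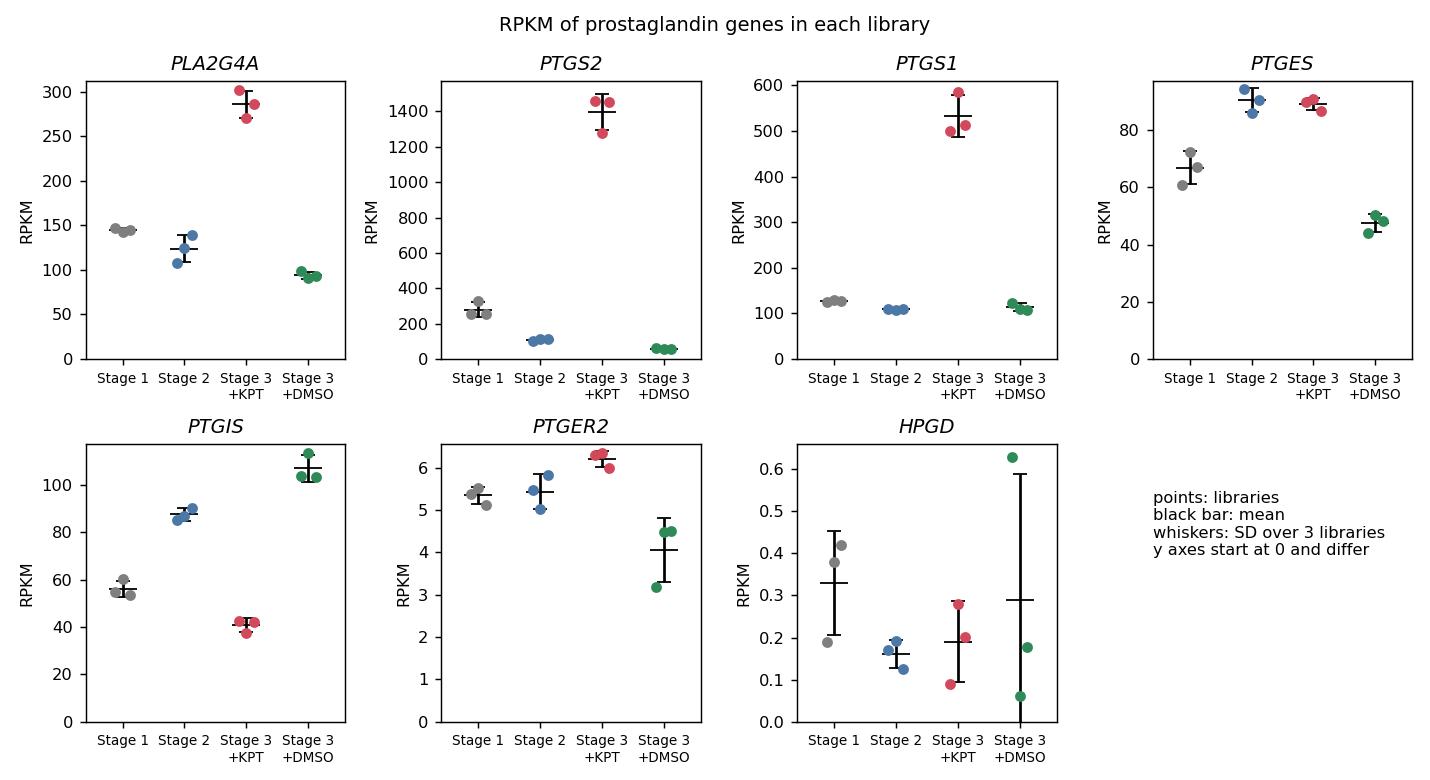
RPKM of each of the 7 genes with a row (y axis, starting at 0 and scaled per gene) in every library (points), by group (x axis), with the group mean (bar) and SD over 3 libraries (whiskers, cut at 0 for HPGD in Stage 3+DMSO). PTGS2 reached 1279 to 1459 RPKM in Stage 3+KPT and 54.6 to 61.4 in Stage 3+DMSO, and PTGIS ran the other way.

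PLA2G4A (ENSSSCG00000023351) lies on the forward strand at chr9:140460880-140623439 in the coordinates of the deposited table, whose genome build is not named in the labels or headers, and has 18 exons. It had 301, 271 and 286 RPKM in Stage 3+KPT libraries, against 98.3, 90.5 and 92.8 RPKM in Stage 3+DMSO libraries. Every KPT library was above every DMSO library, with a log2 fold change of 1.60 (SE 0.08) on the log2(RPKM + 1) scale that is used for all fold changes here. Across the stages it had 147, 143 and 145 RPKM at Stage 1 and 108, 124 and 139 at Stage 2, before the lower values of Stage 3+DMSO. All neighbouring groups in the order Stage 3+KPT, Stage 1, Stage 2 and Stage 3+DMSO were separate, although Stage 2 reached within a few RPKM of Stage 1. The log2 fold change was -0.23 for Stage 2 against Stage 1, and -0.14 without Stage 2 replicate 1. It was -0.39 for Stage 3+DMSO against Stage 2 and -0.62 for Stage 3+DMSO against Stage 1.

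PTGS2 (ENSSSCG00000015579) lies on the reverse strand at chr9:140251518-140260362, and the table lists its biotype as a processed transcript. It had 1459, 1279 and 1453 RPKM in Stage 3+KPT libraries, against 61.4, 54.6 and 55.6 RPKM in Stage 3+DMSO libraries. The lowest KPT library thus stood far above the highest DMSO library, and PTGS2 ranked 82 to 98 among all 22861 genes of a KPT library, against 2570 to 2862 in a DMSO library. The values rest on 318135 reads over the 3 KPT libraries and 13072 over the 3 DMSO libraries. The log2 fold change of 4.59 (SE 0.09) was the 13th highest of 13046 genes.

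Before Stage 3, PTGS2 had 257, 326 and 252 RPKM at Stage 1 and 104, 113 and 111 RPKM at Stage 2. No library of one stage overlapped another stage, and the spread was widest at Stage 1, where replicate 2 was high. The group means, in order of level, were 1397 ± 102 RPKM in Stage 3+KPT, 278 ± 41.4 at Stage 1, 109 ± 4.58 at Stage 2 and 57.2 ± 3.68 in Stage 3+DMSO (SD, n = 3 each). The KPT level was therefore 5.02-fold above Stage 1, the highest group without KPT. The log2 fold change was -1.33 for Stage 2 against Stage 1 and -2.26 for Stage 3+DMSO against Stage 1, the 22nd lowest of 13046. For Stage 3+DMSO against Stage 2 it was -0.93, or -1.09 after median-ratio rescaling, which shifts all genes because their median in that comparison was 0.15.

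PTGS1 (ENSSSCG00000005533) lies on the forward strand at chr1:294753878-294780705 and has 11 exons. It had 499.9, 585 and 514 RPKM in Stage 3+KPT libraries, against 123, 110.4 and 107 RPKM in Stage 3+DMSO libraries. Here too the groups were fully apart (log2 fold change 2.22, SE 0.07). At the earlier stages PTGS1 had 125, 129.6 and 127 RPKM at Stage 1 and 109.6, 108 and 109 at Stage 2. The groups without KPT thus stayed within a narrow band, and Stage 2 and Stage 3+DMSO overlapped. Stage 2 against Stage 1 gave -0.22 and Stage 3+DMSO against Stage 1 gave -0.16, or -0.28 after median-ratio rescaling. Stage 3+DMSO against Stage 2 gave 0.06, with the sign turned after median-ratio rescaling (-0.11) and under quantile normalization (-0.03), and no difference left without Stage 3+DMSO replicate 1 (-0.0011).

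The balance between the cyclooxygenases differed between groups. PTGS2 made up 72.3% ± 3.24 of their summed RPKM in Stage 3+KPT, against 33.5% ± 0.602 in Stage 3+DMSO (SD, n = 3 each). Before Stage 3 the share was 68.5% ± 2.72 at Stage 1 and 50.1% ± 1.25 at Stage 2, so the KPT and Stage 1 shares overlapped while their sums did not. The sum was 1930 ± 57.2 RPKM in Stage 3+KPT, 171 ± 12.2 in Stage 3+DMSO, 218 ± 3.76 at Stage 2 and 406 ± 43.4 at Stage 1.

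PTGES (ENSSSCG00000005688), the membrane prostaglandin E synthase, lies on the reverse strand at chr1:303779651-303792393 and has 3 exons. It had 89.9, 90.9 and 86.8 RPKM in Stage 3+KPT libraries, against 44.2, 50.2 and 48.4 RPKM in Stage 3+DMSO libraries. That is a log2 fold change of 0.89 (SE 0.07) with no overlap. Its stage course was not that of PTGS2, with 60.9, 72.5 and 67.1 RPKM at Stage 1, then 94.5, 86.1 and 90.6 at Stage 2. PTGES was thus highest at Stage 2, level with the KPT libraries, whose range it overlapped, and lowest in Stage 3+DMSO. The log2 fold change was 0.43 for Stage 2 against Stage 1, -0.91 for Stage 3+DMSO against Stage 2 and -0.48 for Stage 3+DMSO against Stage 1.

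PTGIS (ENSSSCG00000007463), prostacyclin synthase, lies on the reverse strand at chr17:57474335-57521756 and has 10 exons. It had 42.7, 37.3 and 42.2 RPKM in Stage 3+KPT libraries, against 104, 114 and 103 RPKM in Stage 3+DMSO libraries. It was the 1 gene of the 6 that was lower with KPT (log2 fold change -1.37, SE 0.07), and the KPT libraries were below every other library. Before Stage 3 it had 54.6, 60.1 and 53.5 RPKM at Stage 1 and 85.4, 87.1 and 90.5 at Stage 2. The order, Stage 3+DMSO over Stage 2 over Stage 1 over Stage 3+KPT, was the reverse of that of PTGS2, again with no overlap between neighbours. Stage 2 against Stage 1 gave 0.64 and Stage 3+DMSO against Stage 1 gave 0.92. The step of Stage 3+DMSO against Stage 2 was 0.28, or 0.12 after median-ratio rescaling and 0.18 under quantile normalization.

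The ratio of PTGES to PTGIS, both per exon length, was 2.20 ± 0.207 in Stage 3+KPT, against 0.445 ± 0.0216 in Stage 3+DMSO (SD, n = 3 each). Stage 1 had 1.19 ± 0.0702 and Stage 2 had 1.03 ± 0.0650. KPT libraries thus held more of the prostaglandin E synthase messenger than of the prostacyclin synthase messenger, and DMSO libraries the reverse. Against PTGES, PTGS2 stood at 15.7 ± 1.42 to 1 in Stage 3+KPT and 1.21 ± 0.160 to 1 in Stage 3+DMSO, with 1.21 ± 0.106 at Stage 2 and 4.16 ± 0.375 at Stage 1. Protein and prostaglandins were not measured.

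**Figure D2:**
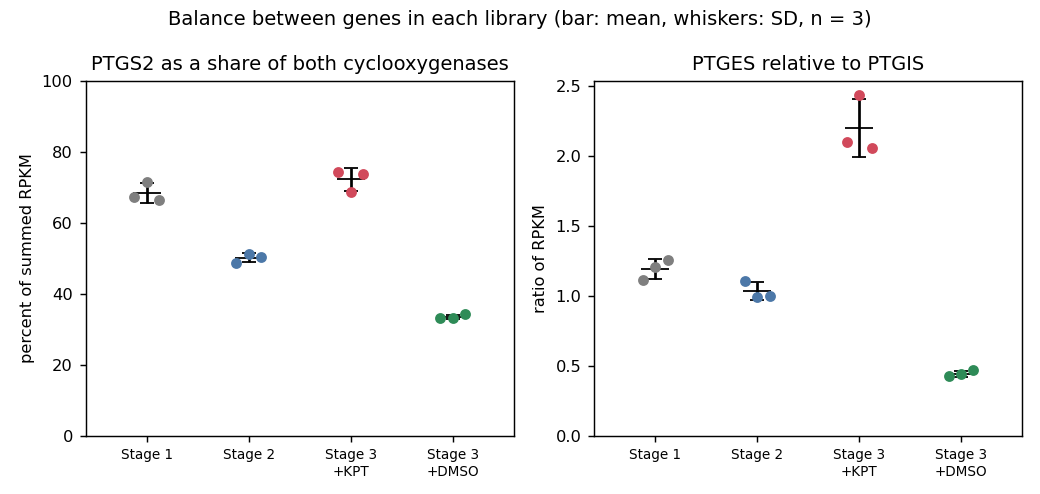
Left, PTGS2 as a percent of the summed RPKM of both cyclooxygenases, and right, the ratio of PTGES to PTGIS RPKM, in every library (points) by group, with mean and SD over 3 libraries. The PTGES to PTGIS ratio was above 2 in every Stage 3+KPT library and below 0.5 in every Stage 3+DMSO library.

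PTGER2 (ENSSSCG00000021862), the receptor with a row, lies on the forward strand at chr1:202267525-202280375, has 2 exons and was the lowest of the 6. It had 6.30, 6.34 and 5.997 RPKM in Stage 3+KPT libraries, against 3.18, 4.49 and 4.49 RPKM in Stage 3+DMSO libraries, on 1094 and 718 reads in all. The groups were apart (log2 fold change 0.52, SE 0.12), with the low Stage 3+DMSO replicate 1 widening the gap, since without it the value was 0.39. Stage 1 had 5.39, 5.53 and 5.12 RPKM and Stage 2 had 5.46, 5.02 and 5.83. These overlapped each other (0.02 for Stage 2 against Stage 1) and lay above Stage 3+DMSO. Stage 3+DMSO against Stage 2 gave -0.36, which was -0.23 without Stage 3+DMSO replicate 1 and -0.59 under quantile normalization. Stage 3+DMSO against Stage 1 gave -0.34, which was -0.21 without that library.

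HPGD (ENSSSCG00000009699; chr14:16908630-16921262, forward strand, 4 exons) was read only a few times in any library. It had 1, 5 and 4 reads in Stage 3+KPT libraries, against 10, 1 and 3 reads in Stage 3+DMSO libraries. Stage 2 had 2, 3 and 2 reads and Stage 1 had 2, 6 and 7. All groups overlapped, the highest level was 0.628 RPKM, and no difference was detectable at this depth.

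Set against all tested genes, the members differed as follows. With KPT, 6 of the 6 tested members passed the adjusted p threshold of 0.05 that defines a call, 5 higher and 1 lower, where 60.0% of all tested genes were called (30.5% higher, 29.5% lower). The groups did not overlap for any of the 6, as for 65.2% of all genes. The median log2 fold change was 1.25 over the members and 0.02 over all genes. At Stage 2 against Stage 1, 5 members were past the threshold, 2 higher and 3 lower, beside 40.7% of all genes (16.3% higher, 24.4% lower), and 5 had separate groups, beside 52.5%. Median changes there were -0.10 for the members and -0.05 for all genes. For Stage 3+DMSO against Stage 2 the counts were 5 past the threshold, 1 higher and 4 lower, beside 44.1% of all genes (33.0% higher, 11.1% lower), with 5 separate, beside 51.1%, and medians of -0.37 and 0.15. For Stage 3+DMSO against Stage 1 they were 5, with 1 higher and 4 lower, beside 47.7% (30.5% higher, 17.3% lower), with 6 separate, beside 59.0%, and medians of -0.41 and 0.10. Median-ratio rescaling changed the balance of calls over all genes, to 2625 higher and 2543 lower for Stage 3+DMSO against Stage 2, beside 4309 and 1446 as deposited, and to 2960 and 3162 for Stage 3+DMSO against Stage 1, beside 3975 and 2251. Nothing is read from these counts, since the members were chosen with these comparisons known, and successive comparisons share a group.

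**Figure D3:**
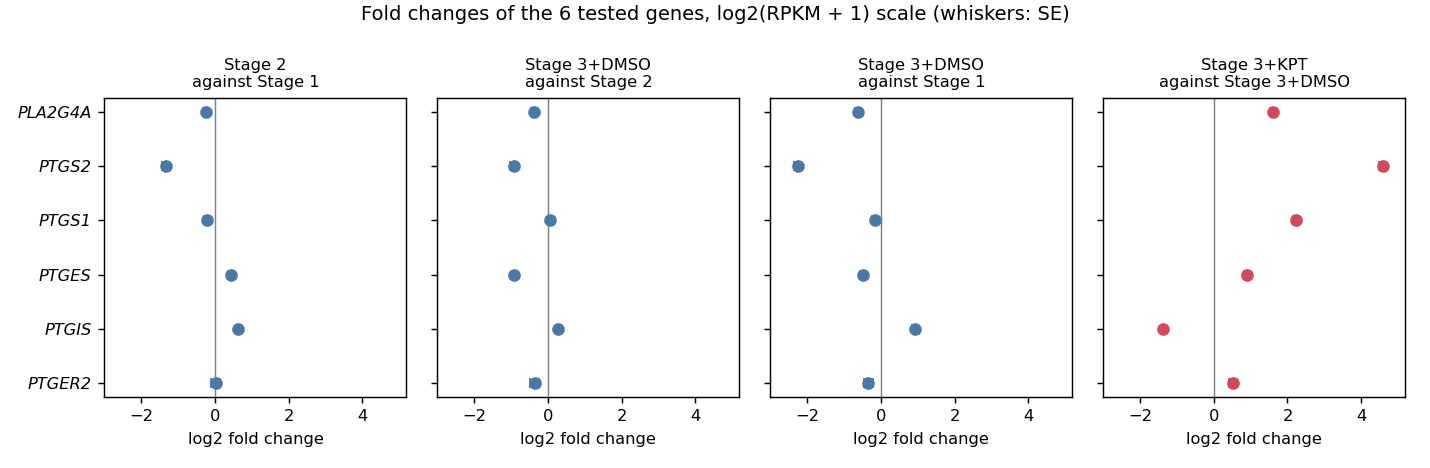
Log2 fold changes of the 6 tested genes (rows) on the log2(RPKM + 1) scale in 4 comparisons (panels), with SE as whiskers, which are mostly hidden by the points. PTGS2 stood at 4.59 with KPT and at -2.26 for Stage 3+DMSO against Stage 1, and PTGIS at -1.37 and 0.92.

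PTGS2 and PLA2G4A are neighbours on chromosome 9, with 200517 bases between them and 1 unnamed protein-coding gene, ENSSSCG00000015580, in the gap. That gene had 211 ± 13.6 RPKM in Stage 3+KPT, against 85.7 ± 10.05 in Stage 3+DMSO, with 112 ± 11.9 at Stage 2 and 121 ± 6.60 at Stage 1 (SD, n = 3 each). The order of the group means was thus the same in all 3 adjacent genes, although the Stage 2 and Stage 1 means of the unnamed gene differed by less than their spread. PTGS2 and PLA2G4A were chosen with their values known, and how many of all genes had this order was not counted. Further out, C1orf27 had 38.7 ± 4.02 RPKM in Stage 3+KPT and 18.8 ± 1.68 in Stage 3+DMSO, with 20.3 ± 4.22 at Stage 2 and 19.2 ± 2.79 at Stage 1. TPR, beside it, had 35.4 ± 2.22 RPKM in Stage 3+KPT and 28.2 ± 0.397 in Stage 3+DMSO. It had 28.6 ± 1.01 at Stage 2 and was highest at Stage 1, at 38.8 ± 1.32. CENPF, a kinetochore gene, had 0.256 ± 0.0409 and 7.41 ± 1.20 RPKM in Stage 3+KPT and Stage 3+DMSO. PDC was at 0 in every library.

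Exon values, deposited separately from gene values but from the same reads, showed how evenly each difference ran along the gene. Overlapping exon entries of PTGS2 (26 entries, 18 distinct intervals) were merged to 10 stretches, each represented by its longest entry. Between Stage 3+KPT and Stage 3+DMSO, the ratio of mean RPKM for PTGS2 was 19.8 to 26.9 over the 10, with a median of 21.9, the lowest at the first and the highest at the last. All 10 stretches thus showed the difference. PTGS1 ranged from 4.08 to 5.02 over 11 exons, PTGIS from 0.294 to 0.401 over 10 and PTGES from 1.65 to 1.97 over 3. PTGER2 had 1.24 at its first exon and 1.76 at its last. PLA2G4A was the least even of the long genes, at 2.27 to 4.46 over 18 exons, with 3.98, 4.46 and 4.23 at exons 10, 11 and 12. For Stage 3+DMSO against Stage 1 the ratio was 0.193 to 0.228 for PTGS2, 0.505 to 0.879 for PLA2G4A and 1.73 to 2.08 for PTGIS. It was 0.724 to 1.02 for PTGS1, 0.690 to 1.002 for PTGES and 0.730 to 0.797 for PTGER2, so PTGS1 and PTGES each had an exon at or above equal levels.

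**Figure D4:**
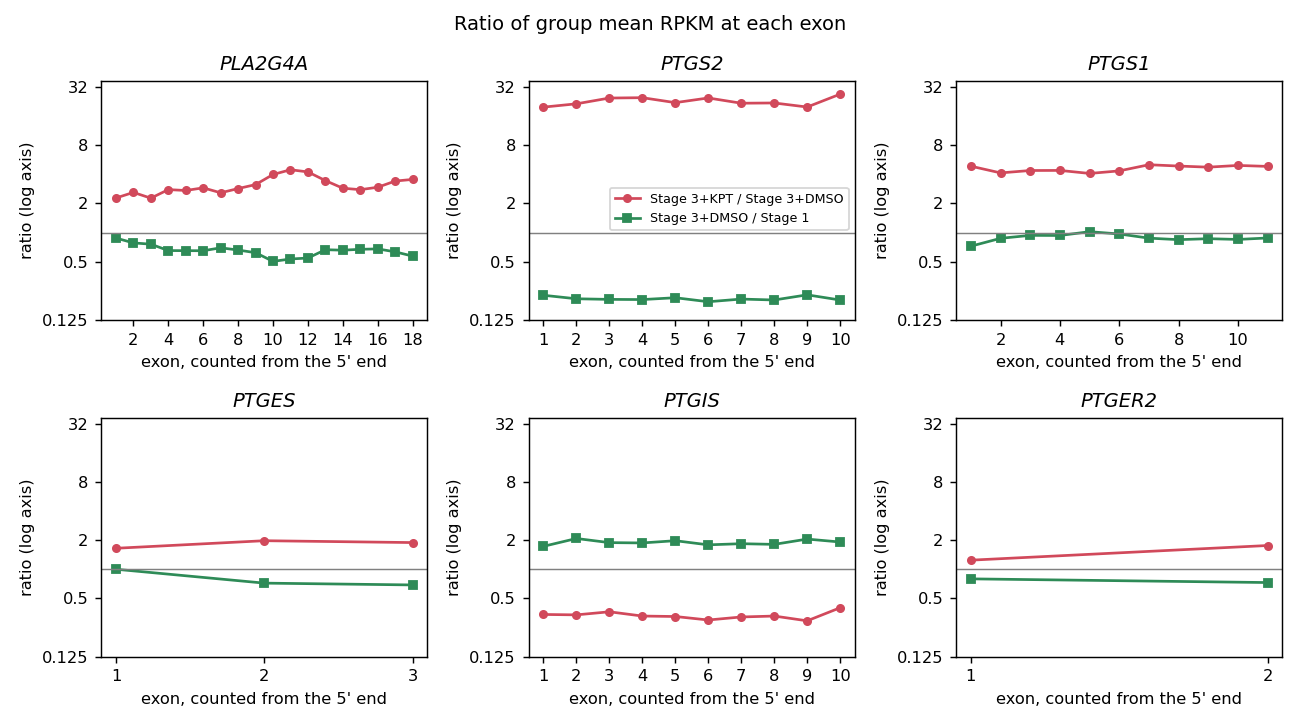
Ratio of group mean RPKM (y axis, log scale) at each exon counted from the 5' end (x axis) for the 6 tested genes, for Stage 3+KPT over Stage 3+DMSO (circles) and Stage 3+DMSO over Stage 1 (squares); the grey line marks equal levels. The PTGS2 ratio with KPT stayed between 19.8 and 26.9 at every exon, while that of PLA2G4A was 4.46 at exon 11.

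The last exon was also set against the first within each library, as log2 of the ratio of RPKM + 1. For PLA2G4A this was -0.02 ± 0.02 in Stage 3+KPT and -0.64 ± 0.27 in Stage 3+DMSO (SD, n = 3 each), with -0.35 ± 0.20 at Stage 2 and -0.03 ± 0.11 at Stage 1. For PTGS2 it was 0.64 ± 0.22 in Stage 3+KPT and 0.20 ± 0.12 in Stage 3+DMSO, with 0.27 ± 0.17 at Stage 2 and 0.37 ± 0.05 at Stage 1. The last exon of both genes was thus relatively higher with KPT. An exact two-sided permutation test over 3 against 3 libraries cannot go below p = 0.1, so none of the 24 such differences over the 6 genes and 4 comparisons could pass, and they are given as descriptions. RNA quality was not tested as a source of them.

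Over the 12 libraries, PLA2G4A was the member most like PTGS2, with Pearson's r of 0.981 on log2(RPKM + 1), the 10th highest among 10778 tested genes with a symbol. PTGS1 had r = 0.909 (place 223), PTGER2 0.748, PTGES 0.607 and PTGIS -0.967, near the other end (place 10744). The 12 libraries fall into 4 groups with KPT apart, so these values describe differences between group levels, including the size of the KPT gap. A high r does not require the same order, as the PTGS1 mean was lowest at Stage 2 and the PTGS2 mean in Stage 3+DMSO. The genes most like PTGS2 were CH242-17O13.4 (0.994), SULF1, an extracellular heparan sulfatase (0.991), ACSL4, which couples arachidonate to coenzyme A (0.990), SNAPC1, of small nuclear RNA transcription (0.987), and PNPLA8, a calcium-independent phospholipase (0.985). SULF1 averaged 116 RPKM in Stage 3+KPT and 12.4 in Stage 3+DMSO, with 20.8 at Stage 2 and 32.7 at Stage 1, the order that PTGS2 had. Least like it were LMCD1, a LIM domain protein (-0.993), COL11A1, a fibrillar collagen chain (-0.990), and GOLM1, of the Golgi membrane (-0.989). COL11A1 averaged 126 RPKM in Stage 3+KPT and 490.1 in Stage 3+DMSO, with 385 at Stage 2 and 238 at Stage 1, the order that PTGIS had.

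The rest of the pathway was read from 8 gene lists without the members, of which 82 genes had a row and 67 were tested. With KPT 27 of the 67 rose and 18 fell by limma at an adjusted p under 0.05, which is 67.2% beside the 60.0% of all tested genes, with a median log2 fold change of 0.09 beside 0.02 over all genes. The counts of each list below are to be read beside the 30.5% of all tested genes that rose and the 29.5% that fell with KPT. The lists were drawn up with earlier results of these data known. Nothing is therefore read from their shares, here or in the stage comparisons below.

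Among the 7 tested genes of arachidonate release, 2 rose and 2 fell with KPT. ACSL4 had 302 ± 24.1 RPKM in Stage 3+KPT and 53.4 ± 4.65 in Stage 3+DMSO (SD, n = 3 each; log2 fold change 2.48, SE 0.09, limma adjusted p = 1.47e-10). LPCAT3, which puts arachidonate back into phospholipids, rose by 0.34 (limma adjusted p = 0.00222). MGLL, a lipase that frees arachidonate from a monoacylglycerol, had 10.9 ± 1.30 RPKM in Stage 3+KPT and 31.1 ± 5.99 in Stage 3+DMSO (-1.42, limma adjusted p = 8.45e-07). ANXA1, annexin A1, a phospholipid-binding protein known to restrain phospholipase, fell to 489.8 ± 31.9 RPKM in Stage 3+KPT, against 758 ± 113 in Stage 3+DMSO (-0.62, limma adjusted p = 8.02e-05). The phospholipases PLA2G6, PLA2G4B and PLA2G12A did not pass (0.04, 0.01 and -0.21).

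Of 4 other prostanoid synthases, AKR1B1, aldose reductase, known in human cells as a prostaglandin F synthase, rose to 725 ± 75.2 RPKM in Stage 3+KPT, against 130.1 ± 20.1 in Stage 3+DMSO (2.48, limma adjusted p = 9.13e-10). FAM213B, a prostamide reductase named here after its values were seen, also passed (-1.001), although its groups overlapped. The constitutive prostaglandin E synthases did not pass, with log2 fold changes of -0.12 for PTGES2 and 0.07 for PTGES3 (limma adjusted p = 0.344 and 0.565). HPGDS and TBXAS1, the synthases of prostaglandin D2 in haematopoietic cells and of thromboxane, were listed at 0 in every library.

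Other prostanoid receptors were few. PTGFR, the prostaglandin F receptor, fell to 1.88 ± 0.259 RPKM in Stage 3+KPT, against 4.22 ± 0.708 in Stage 3+DMSO (-0.85, limma adjusted p = 0.00203). PTGFRN, a membrane partner of PTGFR, fell to 32.3 ± 1.79 RPKM in Stage 3+KPT, against 112 ± 8.58 in Stage 3+DMSO (-1.76, limma adjusted p = 4.19e-10). PTGIR, the prostacyclin receptor, did not pass (-0.16, limma adjusted p = 0.375), nor did PPARD. PTGER1, PTGER3, PTGDR, PTGDR2 and PPARG had rows but peaked at 0.872 RPKM or lower, so PTGER2 was the 1 prostaglandin E receptor with a row that was high enough to test.

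All 5 transport and breakdown genes passed with KPT, 3 higher and 2 lower, beside 60.0% of all tested genes. The carriers SLCO2A1, which takes prostaglandins up, and ABCC4, which exports them, rose by 1.04 and 0.93 (limma adjusted p = 9.88e-05 and 9.61e-04), both at under 5 RPKM. SLCO3A1, a further organic anion carrier, fell by 0.80 (limma adjusted p = 2.13e-04). The prostaglandin reductases moved apart. PTGR2 rose to 34.5 ± 2.00 RPKM in Stage 3+KPT, against 15.7 ± 0.815 in Stage 3+DMSO (1.08, limma adjusted p = 5.45e-06), while PTGR1 fell to 17.5 ± 1.89 RPKM, against 50.3 ± 7.96 in Stage 3+DMSO (-1.46, limma adjusted p = 1.21e-06).

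In the lipoxygenase branch, which also uses arachidonate, 1 of 6 tested genes rose and 2 fell. ALOX12 rose by 0.61 (limma adjusted p = 7.44e-04). LTC4S, leukotriene C4 synthase, fell to 1.90 ± 0.714 RPKM in Stage 3+KPT, against 10.1 ± 1.43 in Stage 3+DMSO (-1.96, limma adjusted p = 6.07e-07), and ALOX5AP, the partner of ALOX5, fell by 0.77 (limma adjusted p = 2.90e-04). ALOX5 itself peaked at 0.595 RPKM and was not tested.

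Of 12 tested inducers and transcription factors known to act on PTGS2, 6 rose and 2 fell with KPT. IL1A, a cytokine, rose to 7.48 ± 0.653 RPKM in Stage 3+KPT, against 0.596 ± 0.362 in Stage 3+DMSO (2.43, limma adjusted p = 4.64e-07). It averaged 0.353 RPKM at Stage 2 and 1.21 at Stage 1, so its KPT libraries were enough to bring it past the minimum for testing. Of the other listed cytokines, TNF was at 0 in every library and IL1B had no row. The factors EGR1, CEBPB and CEBPD rose by 1.44, 1.27 and 0.95 (limma adjusted p = 3.45e-07, 1.23e-06 and 2.09e-07). IL1R1, the interleukin-1 receptor, and NFKB1, an NF-kB subunit, rose by 0.78 and 0.69 (limma adjusted p = 6.98e-06 and 1.06e-04), while RELA, a further NF-kB subunit, JUN, FOS and FOSL1 did not pass (0.02, -0.00, 0.24 and 0.23). TNFRSF1A, the tumour necrosis factor receptor, fell by 0.44 (limma adjusted p = 1.60e-05). CREB1 was lower by a smaller step (-0.32, limma adjusted p = 0.0429), a call that was lost in 8 of 14 alternatives, over which the adjusted p was 0.0229 to 0.195. It was 0.195 and 0.0537 without Stage 3+KPT replicates 1 and 2, and 0.110 and 0.101 without Stage 3+DMSO replicates 1 and 2.

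Among 13 regulators of AU-rich messengers, 6 rose and 1 fell. DUSP1, a phosphatase of p38 kinase, rose to 151 ± 1.24 RPKM in Stage 3+KPT, against 54.8 ± 11.1 in Stage 3+DMSO (1.47, limma adjusted p = 1.86e-07). The decay factors ZFP36L1 and ZFP36 rose by 0.97 and 0.87 (limma adjusted p = 2.07e-06 and 3.32e-07), and MAPKAPK2, a kinase that acts on ZFP36, by 0.45 (limma adjusted p = 0.00113). RBM3, which binds such messengers, fell by 0.41 (limma adjusted p = 2.16e-04), and the stabilizing factor ELAVL1 did not pass (-0.02).

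On the list for cAMP signalling of the PTGER2 and PTGER4 receptors, 8 of 16 tested genes rose and 6 fell. This list also holds AREG, NR4A2 and NR4A3, which are not parts of the chain from receptor to kinase. AREG, an EGF receptor ligand, had 1194 ± 75.7 RPKM in Stage 3+KPT and 7.005 ± 3.99 in Stage 3+DMSO (7.33, SE 0.23, limma adjusted p = 8.06e-11), and NR4A2, a nuclear receptor, had 435 ± 15.97 and 48.6 ± 22.7 RPKM in Stage 3+KPT and Stage 3+DMSO (3.27, limma adjusted p = 5.23e-07). NR4A3, of the same family, and CREM, a cAMP-responsive transcription factor, rose by 1.81 and 0.37 (limma adjusted p = 4.60e-05 and 0.0161). The phosphodiesterases PDE4B and PDE4D, which break cAMP down, rose by 2.76 and 2.26 (limma adjusted p = 1.32e-08 and 1.09e-07). PDE4A, of the same family, was lower (-0.27, limma adjusted p = 0.0151). Subunits of protein kinase A moved apart, with the cAMP-binding PRKAR1A up by 0.60 (limma adjusted p = 2.21e-07), PRKAR2B not past the threshold (0.08), and the catalytic PRKACB and PRKACA at -0.60 and -0.37. The adenylate cyclases ADCY3 and ADCY9 were at -1.71 and -0.28, while ADCY6 did not pass (-0.09). GNAS, the stimulatory G protein, was at -0.40 (limma adjusted p = 6.74e-06 for PRKACB, 1.31e-04 for PRKACA, 7.30e-09 for ADCY3, 0.0422 for ADCY9 and 1.14e-05 for GNAS). ARRB2 rose by 0.43 (limma adjusted p = 8.25e-04).

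**Figure D5:**
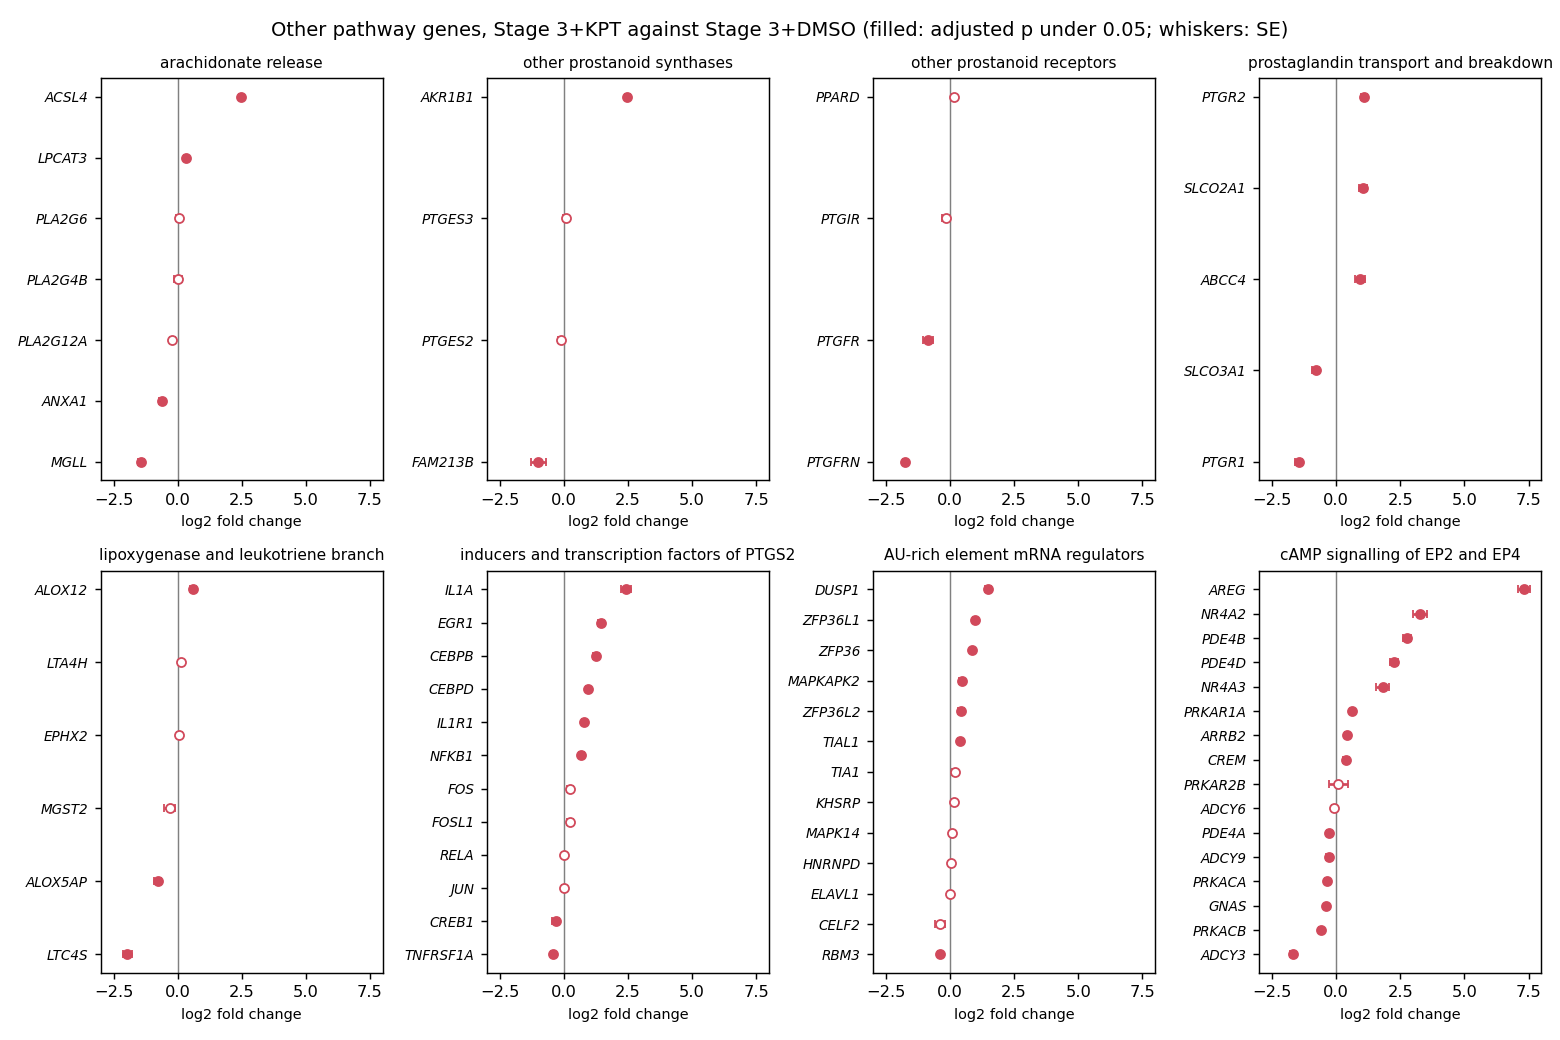
Log2 fold change (x axis) of the 67 tested genes of 8 pathway lists (panels) for Stage 3+KPT against Stage 3+DMSO, with SE as whiskers; filled points have a limma adjusted p under 0.05 over all tested genes. AREG stood furthest right at 7.33 and LTC4S furthest left at -1.96.

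At Stage 2 against Stage 1, 16 of the 67 rose and 19 fell (52.2%, beside 40.7% of all tested genes, 16.3% higher and 24.4% lower; median 0.02), or 19 and 14 after median-ratio rescaling. PTGFRN had 73.6 ± 2.52 RPKM at Stage 2 and 36.7 ± 0.920 at Stage 1 (0.99, limma adjusted p = 1.23e-06), and PTGFR rose with it (0.89, limma adjusted p = 0.0029). ACSL4 fell to 74.9 ± 6.94 RPKM at Stage 2, against 109 ± 3.85 at Stage 1 (-0.54, limma adjusted p = 3.34e-04). The factors moved apart, with CEBPB at -0.94 and CEBPD at 0.86 (limma adjusted p = 6.97e-05 and 4.15e-06). Of the 13 regulators of AU-rich messengers 8 fell and 2 rose, to be read beside the same shares of all genes, among them CELF2 (-1.35, limma adjusted p = 1.45e-04), RBM3 (-0.54, limma adjusted p = 7.57e-05) and ZFP36L1 (0.53, limma adjusted p = 8.81e-04). AREG fell to 11.7 ± 0.487 RPKM at Stage 2, against 29.5 ± 2.38 at Stage 1 (-1.26, limma adjusted p = 0.00103), and ALOX12 fell by 1.03 (limma adjusted p = 4.07e-05).

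For Stage 3+DMSO against Stage 2, 23 of the 67 rose and 10 fell (49.3%, beside 44.1% of all tested genes, 33.0% higher and 11.1% lower; median 0.08 beside 0.15 over all genes), but 14 rose and 22 fell after median-ratio rescaling. PTGR1 rose to 50.3 ± 7.96 RPKM in Stage 3+DMSO, against 20.5 ± 2.07 at Stage 2 (1.25, limma adjusted p = 1.80e-05), and PTGFRN rose by 0.59 (limma adjusted p = 2.79e-05). ACSL4 fell again (-0.48, limma adjusted p = 6.83e-04), as did CEBPD (-0.64, limma adjusted p = 2.48e-05). ZFP36L1 fell to 81.0 ± 12.9 RPKM in Stage 3+DMSO, against 174 ± 13.5 at Stage 2 (-1.10, limma adjusted p = 2.89e-06), PDE4B fell by 1.00 (limma adjusted p = 2.98e-04) and ADCY3 rose by 0.95 (limma adjusted p = 7.33e-06).

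For Stage 3+DMSO against Stage 1, 22 of the 67 rose and 15 fell (55.2%, beside 47.7% of all tested genes, 30.5% higher and 17.3% lower; median 0.08 beside 0.10), or 17 and 22 after median-ratio rescaling. ACSL4 was lower by 1.02 on the log2 scale (limma adjusted p = 1.27e-06), beside the lower PLA2G4A and PTGS2. The secreted phospholipase PLA2G12A had 31.4 ± 3.40 RPKM in Stage 3+DMSO and 14.8 ± 1.89 at Stage 1 (1.04, limma adjusted p = 2.92e-06), and ANXA1 had 758 ± 113 and 443 ± 13.6 RPKM in Stage 3+DMSO and at Stage 1 (0.76, limma adjusted p = 2.61e-05). PTGFRN rose to 112 ± 8.58 RPKM in Stage 3+DMSO, against 36.7 ± 0.920 at Stage 1 (1.58, limma adjusted p = 9.53e-09). CEBPB fell by 0.99 and JUN rose by 0.82 (limma adjusted p = 2.29e-05 and 5.37e-06). AREG was at -2.04, NR4A2 at 1.497 and PRKACB at 1.30 (limma adjusted p = 1.69e-05, 7.79e-04 and 3.01e-08).

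Several pathway genes, picked after their values were seen, had opposite signs with KPT and over the stages. ACSL4 had 2.48 with KPT and -1.02 for Stage 3+DMSO against Stage 1, PTGFRN -1.76 and 1.58, CEBPB 1.27 and -0.99, and AREG 7.33 and -2.04, as PTGS2 had 4.59 and -2.26 and PTGIS -1.37 and 0.92. Other called genes had the same sign in both, such as NR4A2 (3.27 and 1.497), ABCC4 (0.93 and 0.57) and CEBPD (0.95 and 0.22). How many genes did either was not counted. These comparisons share the Stage 3+DMSO libraries, on opposite sides, so the values stand side by side and are not independent of each other.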

How the data were processed

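RNA was sequenced from 12 libraries of pig aortic valve interstitial cells, 3 in each of 4 groups, from 500 ng of total RNA with the Illumina TruSeq Stranded mRNA kit, per the labels' protocols. The submitters' processing notes name TopHat2 2.1.0 as the aligner. Nothing names the counter, the build or the annotation. As deposited by the authors, the files held RPKM values for 22861 genes and 189618 exons, with no counts. No source says that counting used strand, and overlapping or antisense genes may have shared reads. Whole reads were recovered from the deposited RPKM values, union exon lengths and library totals, for 100% of values within 0.0001 of a read, with 23287593 to 43293744 reads summed over genes per library. In every library this sum exceeded the recovered library total, which ran from 13188023 to 24724019 over the libraries. The reason is not stated, so the unit of a recovered read is not known.

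R 4.3.3 and limma 3.58.1 were used for tests, on log2(RPKM + 1) values with an expression trend, over all 12 libraries in 1 fit with a coefficient per group, as the values are not counts. The 13046 genes at 1 RPKM or more in 3 or more libraries entered, and a Benjamini-Hochberg adjusted p under 0.05 over those genes is a call. The scale understates the change of low genes. The procedure was also run on simulated data in which few genes changed, unlike these data, so that run does not measure its error rate here. Symbols came from the gene table (15203 genes), a table of IDs (1715) and Entrez numbers (627).

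The members, the 8 pathway lists and the marker lists were chosen with earlier results of these data known. Pathway genes are named where they passed in a comparison with no overlap between groups, up to 4 per direction and list, and a few others (among them FAM213B, IL1R1, NFKB1, PRKAR1A, CREM and NR4A3) are named, after their values were seen, to account for a count. Likeness to PTGS2 names the 5 highest and 3 lowest Pearson's r among tested genes with a symbol. Exons with at least 200 reads over all libraries entered the exon ratios. The alternatives were a pseudocount of 0.1, no filter, a minimum of 5 RPKM, median-ratio rescaling, quantile normalization, a fit of the 2 groups alone, a replicate block, limma-voom on the recovered reads and leaving out each library. Gene and protein sequences were not used here.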

Additional observations from a re-analysis of the deposited data

How the results depend on the processing

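In all 4 comparisons and under all alternatives run, the PTGS2 fold change kept its direction. The totals of called genes and of called pathway genes, both directions together, stayed within 1.5 times their values. Their split by direction did not always hold. For Stage 3+DMSO against Stage 2, 4309 genes were called higher and 1446 lower, but 2625 and 2543 after median-ratio rescaling, where the balance of the pathway genes turned as well. The PTGS2 log2 fold change of Stage 3+DMSO against Stage 2 (-0.93) moved beyond the spread between libraries to -1.09 under median-ratio rescaling and -1.03 under quantile normalization, and that of Stage 3+KPT against Stage 3+DMSO (4.59) to 4.79 under quantile normalization. Leaving out 1 library at a time gave 4.55 to 4.65 with KPT, -1.40 to -1.21 for Stage 2 against Stage 1, -0.98 to -0.89 for Stage 3+DMSO against Stage 2 and -2.32 to -2.14 for Stage 3+DMSO against Stage 1. Of the other members' 20 fold changes, 263 alternative values stayed within the spread and 17 moved beyond it. With a pseudocount of 0.1 the last-to-first exon difference turned sign for PTGER2 in Stage 3+DMSO against Stage 2 (0.0227, from -0.0071) and for PTGS1 with KPT (-0.0026, from 0.02), both near no difference. Of 1728 alternative values of 124 pathway gene results, 1637 kept their call, 91 lost it and 0 turned sign. Deviations of same-numbered replicates correlated at -0.0713 to 0.0748 over the 4 comparisons, and those of different-numbered replicates at -0.0910 to 0.074. For Stage 3+KPT against Stage 3+DMSO the same-numbered values were 0.0334 to 0.0748, and the different-numbered ones -0.0809 to 0.0322. For Stage 3+DMSO against Stage 1 they were 0.034 to 0.057 and -0.056 to 0.029. Whether the numbers pair samples was therefore not settled. With a replicate block 7725 genes and 45 pathway genes were called with KPT, and 5133 and 34 for Stage 2 against Stage 1. For Stage 3+DMSO they were 5641 and 32 against Stage 2, and 6078 and 40 against Stage 1. After median-ratio rescaling the genes called for Stage 2 against Stage 1 were 2583 higher and 2689 lower, beside 2127 and 3181 as deposited. With 3 libraries a group, small differences such as that of PTGS1 between groups without KPT rest on few values, and HPGD was too low to compare.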
